A study of Mus musculus with 59 samples.

Results

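The 4 clones described here are induced pluripotent stem cell (iPSC) lines in which 2 noncoding RNAs of the imprinted Dlk1-Dio3 region, Meg3 and Rian, were measured at the level of embryonic stem cells (ESC). They were chosen from 48 iPSC clones by 1 rule, that Meg3 and Rian, each read from its brightest probe set, both lie within 1 log2 unit of the mean of the 4 ESC clones. The 4 that met it were iPSC-19, iPSC-44, iPSC-47 and iPSC-49, and the question is what still separates them from the ESC clones ESC-1, ESC-2, ESC-3 and ESC-4. The study profiled mRNA of genetically matched mouse lines on Affymetrix arrays, 59 lines in all with 1 array for each line. The ESC are targeted KH2 cells, and the cassette inserted in the ESC line behind the chimeras encodes myc, Klf4, Oct4 and Sox2 and can be induced. The iPSC came from somatic cells of animals that are chimeras made with such ESC. iPSC-19 is 1 of 2 clones from cells labelled PF of mouse 1, and the other 3 are among the 6 clones from cells labelled TTF of chimera 2. Every line was kept on irradiated feeder cells (MEFs) in medium with 15% FBS and LIF, and feeders were depleted by 45 minutes of preplating before RNA was taken. Each line is 1 clone and 1 array, so the spread given below is that between clones, and the 3 TTF-derived clones share an animal.

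Dlk1-Dio3 is an imprinted region in which the 2 parental copies are used differently. The maternal copy gives noncoding RNAs, among them Meg3 and Rian, the host of many small nucleolar RNAs and microRNAs, while the paternal copy gives protein-coding genes such as Dlk1, a membrane ligand related to Notch ligands. In mouse iPSC the maternal transcripts of this region are often silenced, and the region is known as a marker that separates fully competent clones from others. ESC and iPSC share the pluripotency network built on Oct4 (gene Pou5f1), Sox2 and Nanog, and in serum with LIF both move between a naive state and a state primed for differentiation.

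On the deposited log2 scale, where each array is centred near 0, Meg3 was 3.41 in iPSC-19, 3.13 in iPSC-44, 3.17 in iPSC-47 and 3.19 in iPSC-49, and 3.38, 2.81, 2.95 and 2.74 in ESC-1 to ESC-4. Rian was 3.52, 3.78, 3.73 and 3.62 in the same 4 iPSC and 3.49, 3.45, 3.52 and 3.71 in the ESC. The groups overlapped in both genes. The rule held each chosen clone within 1 log2 unit of the ESC mean, so these levels are a description without a test. The clones outside the rule that were nearest to it in Meg3 were iPSC-45, with Meg3 at 1.88 and Rian at 2.21, and iPSC-46, with 1.85 and 2.43. Among the clones left out, iPSC-32, from PF cells, and iPSC-27, from cells labelled GMP, had Rian within the limit, with differences from the ESC mean of -0.81 and -0.996, but Meg3 outside it, with -1.24 in both. Over the other probe sets of Meg3, the 4 clones differed from ESC by 0.07 to 0.25 in the mean, and over those of Rian by 0.57 and 0.89. The widest of these, 1 probe set of Rian, read 1.25 to 2.08 in the iPSC and 2.06, 0.15, 0.40 and 1.04 in ESC-1 to ESC-4, so the groups overlapped there too. Dlk1, the paternal gene, was low in all 8 arrays, at -0.52, -0.57, -0.37 and -0.66 in the 4 iPSC and at -0.25, -1.18, -1.16 and -1.48 in the ESC. On assembly GRCm38.p6, Dlk1 lies at chr12:109452485-109463336, the Meg3 gene at chr12:109540996-109571729 and the Rian gene at chr12:109603945-109661716, and the last 2 are annotated as long noncoding RNAs. The 10 measured genes that flank the region on both sides, from Evl to Mok, were each read from the brightest probe set. Their differences lay between -0.52 (Ppp2r5c, a phosphatase subunit) and 0.35 (Wars, a tRNA synthetase). For Ppp2r5c, ESC-1 at 3.98 lay within the iPSC range of 3.80 to 4.01, and the other ESC at 4.54 to 4.61. On these probe sets Ppp2r5c and Mok, a kinase gene, passed the threshold (limma adjusted p = 0.0465 and 0.0405). Another probe set of Ppp2r5c differed by -1.02, at 0.66 to 0.91 in the iPSC and 1.33, 2.17, 2.12 and 1.49 in ESC-1 to ESC-4. A further probe set differed by -0.78 without overlap, and the remaining ones by -0.29 to 0.07.

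**Figure D1:**
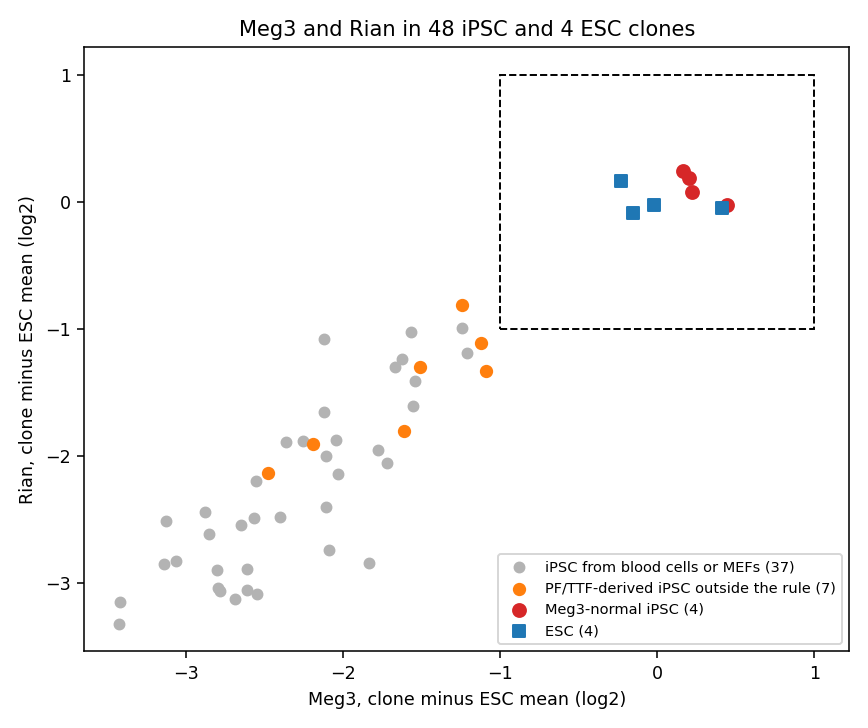
Meg3 (x axis) and Rian (y axis) in each of 48 iPSC and 4 ESC clones, as the clone's log2 value minus the ESC mean; each point is 1 array and the dashed square is the limit of 1 log2 unit. The 4 Meg3-normal clones lie among the ESC, and the nearest other clones lie more than 1 unit below in Meg3.

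The label of pluripotent cells was checked against markers. The mean of 7 pluripotency markers was high in both groups, 4.39 to 4.52 in the 4 iPSC and 4.55 to 4.76 in the ESC. Every iPSC thus lay slightly under every ESC, and the differences of all 7 markers were negative, from -0.44 (Esrrb) to -0.05 (Pou5f1). Markers of blood, trophoblast and primitive endoderm had clone means between -2.81 and -1.98 in both groups, and the 3 neural markers had means between -1.70 and -0.67. Of the blood markers, Ptprc, Mpo, Elane and S100a8 were at -2.72 or less in all 8 arrays. Laptm5 was higher, at -0.12 to 0.53 in the 4 iPSC and 0.16 to 0.57 in the ESC. Lyz2 was -1.25 to -0.89 in the 4 iPSC, but uneven in ESC-1 to ESC-4, at -0.19, -1.92, -1.90 and -3.92. Cd53, at up to 0.52 in the iPSC, is described below. Fibroblast and feeder markers (11 measured of 12) had clone means of 1.70 to 2.10 in the 4 iPSC and 0.23 to 1.83 in the ESC, of which ESC-1 was the highest. These values move with several results below, and their part in them was not tested. In RNA of whole cultures, fewer cells of a type and less RNA per cell cannot be told apart.

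The ESC clones were not equally far from the iPSC. The distance between 2 arrays was taken as the SD over genes of their log2 difference. ESC-1 was 0.43 from ESC-2 and from ESC-4, and 0.42 from ESC-3, but 0.28 from each TTF-derived Meg3-normal clone and 0.38 from iPSC-19. Its 5 nearest arrays in the series were all iPSC from TTF or PF cells. ESC-2 and ESC-3, in contrast, were the closest pair among the 59 arrays at 0.133, and the next pair was at 0.145. Among the 4 iPSC, the TTF-derived clones lay 0.18 to 0.22 from each other and 0.29 to 0.31 from iPSC-19. A result that rests on ESC-2 and ESC-3 thus has fewer independent controls than 4 clones, and a result that excludes ESC-1 is a different comparison, so values against ESC-1 and against the other 3 are given below.

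**Figure D2:**
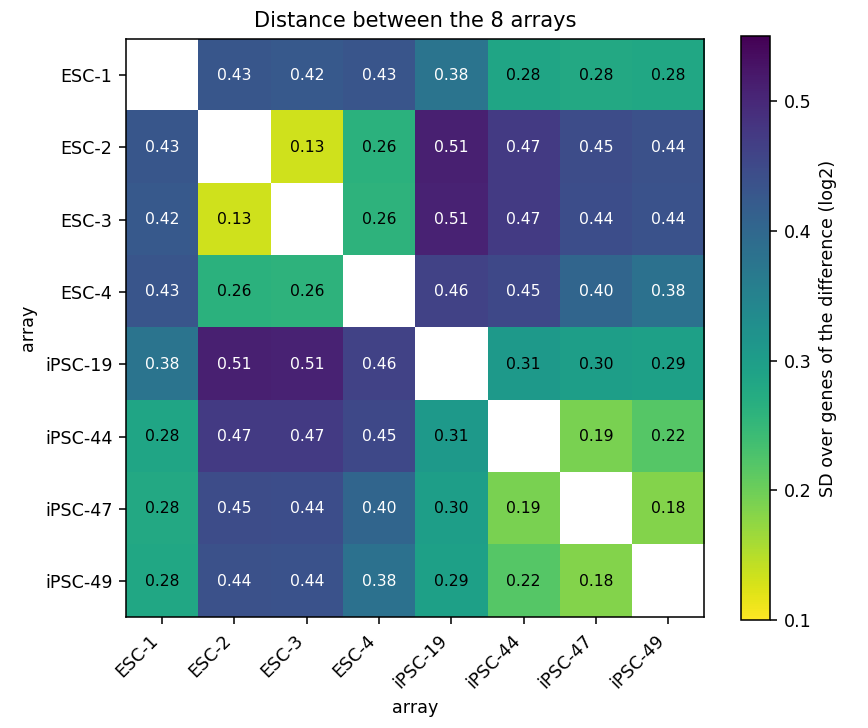
Distance between the 8 arrays, as the SD over 11807 genes of the log2 difference between the array of the row and the array of the column. ESC-1 is nearer to iPSC-44, iPSC-47 and iPSC-49 (0.28) than to any other ESC (0.42 or more), and ESC-2 and ESC-3 are the closest pair (0.13).

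With Meg3 and Rian at ESC level, 1316 of 11807 genes still differed from ESC (11.1%; limma adjusted p under 0.05). Of these, 569 were higher in the iPSC (4.82%) and 747 were lower (6.33%). The changes were mostly small: 54 of the higher and 114 of the lower genes differed by 1 log2 unit or more, and the median difference over all genes was 0.02. In 1180 of the called genes the 4 iPSC did not overlap the 4 ESC. Over all 11807 genes, the 4 iPSC all lay above every ESC in 8.45% and all lay under every ESC in 9.44%. Genes with a small p seldom overlap, so the count of 1180 adds no separate evidence. The count depended on single clones. It was 489 without iPSC-19 (4.14%), 226 without iPSC-44 (1.91%), 137 without iPSC-47 (1.16%), 367 without iPSC-49 (3.11%), 628 without ESC-4 (5.32%), 98 without ESC-3 (0.83%) and 83 without ESC-2 (0.703%). Without ESC-1 it was 3769 (31.9%; 14.4% higher and 17.5% lower), which held all 1316. These shares are the background for the list counts without a clone given below. For list counts of the fit that gave 1316 genes, the background is 4.82% higher and 6.33% lower. With ESC-2 and ESC-3 averaged as 1 clone the count was 101, all among the 1316. With the animal as a random block it was 708. The ESC carry no animal label, so this fit took the 4 ESC as 1 block, with a correlation within blocks of 0.0552. Each block lay on 1 side of the comparison, so the fit does not remove differences between animals. The same holds for the list counts with this block given below. In 647 of the 1316 called genes, ESC-1 was nearer to the iPSC mean than to the mean of the other 3 ESC. There were 79 genes, 17 higher and 62 lower, that passed whichever of the 8 clones was left out.

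**Figure D3:**
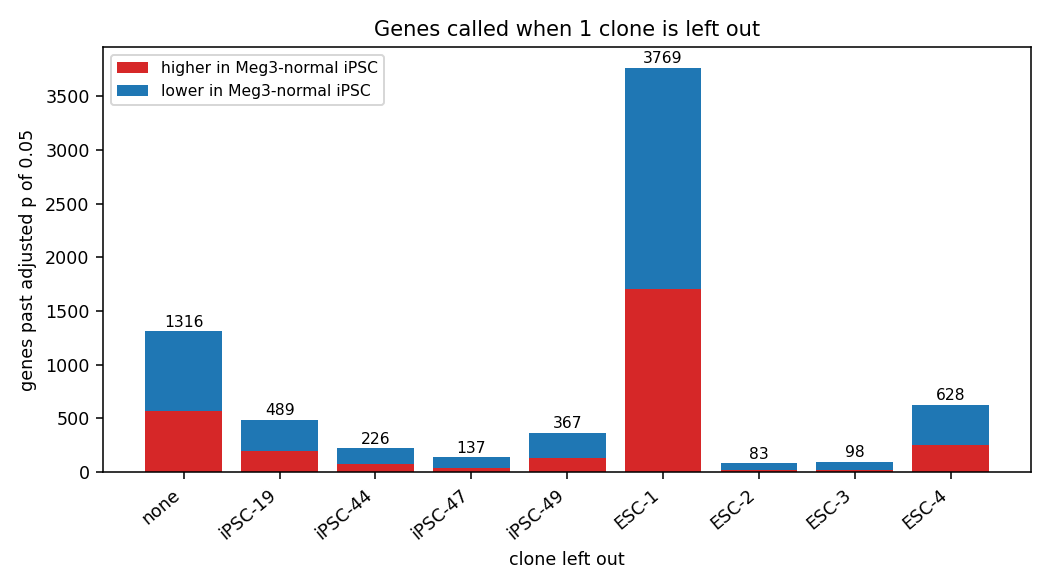
Number of genes past an adjusted p of 0.05 (limma, 4 Meg3-normal iPSC against 4 ESC) with all arrays and with the clone named on the x axis left out; red is higher and blue lower in the iPSC. The count falls from 1316 to 83 without ESC-2 and rises to 3769 without ESC-1.

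Genes of germ cells and meiosis were lower in the 4 clones. Of 20 measured genes of this list, 12 fell, none rose, and the median difference was -0.67. Against ESC-1 alone the median was -0.43 and against the other 3 ESC -0.87, and in 14 of the 20 genes every one of the 4 iPSC lay under ESC-1. Over all 11807 genes the 4 iPSC all lay under ESC-1 in 24.2% and all above it in 27.8%, which is the background for such counts here and below. Smc1b, Stag3, Sycp3 and Dazl passed in all 8 fits that left out 1 clone. The upstream sequences of 3 of them are shown so that they can be read side by side: the 250 bases before the RefSeq start, on the strand of the gene, assembly GRCm38.p6. Capitals mark CACGTG, an E-box that is its own reverse complement, and TTCCCGC or its reverse complement GCGGGAA, an E2F-type motif. The window of Dazl, which is not shown, held neither motif. Smc1b is at chr15:85131958-85132207 on the minus strand, Stag3 at chr5:138280259-138280508 on the plus strand and Sycp3 at chr10:88459337-88459586 on the plus strand.
Smc1b: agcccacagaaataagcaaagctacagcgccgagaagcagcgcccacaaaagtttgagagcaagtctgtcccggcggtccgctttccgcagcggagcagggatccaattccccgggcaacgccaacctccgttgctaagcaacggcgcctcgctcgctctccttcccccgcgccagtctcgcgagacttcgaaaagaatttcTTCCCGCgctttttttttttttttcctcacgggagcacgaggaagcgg
Stag3: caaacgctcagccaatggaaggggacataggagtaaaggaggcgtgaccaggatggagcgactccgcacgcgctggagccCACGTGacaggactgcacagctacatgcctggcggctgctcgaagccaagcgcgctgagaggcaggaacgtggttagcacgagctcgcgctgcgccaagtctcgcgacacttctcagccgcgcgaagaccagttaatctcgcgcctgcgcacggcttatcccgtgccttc
Sycp3: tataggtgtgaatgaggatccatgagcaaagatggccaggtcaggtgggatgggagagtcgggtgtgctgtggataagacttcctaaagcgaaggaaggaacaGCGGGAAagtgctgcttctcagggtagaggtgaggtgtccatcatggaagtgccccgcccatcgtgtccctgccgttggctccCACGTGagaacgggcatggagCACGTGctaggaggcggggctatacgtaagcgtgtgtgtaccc
All 12 genes that fell had such a window, of which 6 held CACGTG, 5 held TTCCCGC on either strand and 8 held at least 1 of the 2 motifs, which do not overlap each other. Over all 32851 promoter windows the shares were 6.02%, 3.82% and 9.5%. The windows of these genes are rich in CpG, with a median of 19 against 6, and among the 12417 windows with 10 or more CpG the shares were 9.37%, 8.27% and 16.8%. Of the 4 list members with a window that were not called, 2 held CACGTG and none held TTCCCGC. A match is a description of the letters and not a binding site.

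Smc1b, the cohesin ring subunit specific to meiosis, was -0.81, -0.73, -0.41 and -0.46 in iPSC-19, iPSC-44, iPSC-47 and iPSC-49, and 0.67, 1.25, 1.38 and 1.07 in ESC-1 to ESC-4. All 4 iPSC lay more than 1 log2 unit under the lowest ESC, which was ESC-1, and the difference was -1.69 ± 0.16 (SE, limma adjusted p = 0.0063). Stag3, another meiotic cohesin subunit, was 0.56, 0.38, 0.78 and 0.86 in the iPSC and 1.85, 2.75, 2.74 and 2.22 in the ESC. Its difference was -1.74 ± 0.20 (limma adjusted p = 0.00853). Sycp3, a protein of the axis along which meiotic chromosomes pair, was 1.42, 1.53, 1.75 and 2.04 in the iPSC and 2.82, 3.19, 3.17 and 2.96 in the ESC. The groups were again apart, by -1.35 ± 0.14 (limma adjusted p = 0.0063). Dazl, an RNA-binding protein needed for germ cell development, was -0.57, -0.84, -0.46 and -0.26 in the iPSC and 0.49, 0.62, 0.43 and 0.59 in the ESC, and for this gene ESC-1 was not the lowest ESC. Its difference was -1.06 ± 0.12 (limma adjusted p = 0.00736). Hormad1, which marks unpaired meiotic chromosome axes, was less even among the iPSC, at 0.07, 0.73, 1.26 and 1.51, against 1.54, 2.43, 2.44 and 2.35 in the ESC. iPSC-49 lay just under ESC-1, and the call (difference -1.29 ± 0.32, adjusted p = 0.0345) held in 2 of the 8 fits, those without iPSC-49 and without ESC-1. The number of list genes that fell was 15 without ESC-1, 9 without iPSC-49, 7 without iPSC-19, 6 without ESC-4, 5 without iPSC-44, and 4 without iPSC-47, ESC-2 or ESC-3. It was 10 with the animal as a random block, and 1 list gene rose without ESC-1. The mean over the list was -0.24, -0.14, 0.04 and 0.21 in the 4 iPSC, and 0.45, 0.79, 0.78 and 0.82 in the ESC. Fibroblast and feeder markers, given above, differ between the groups in the opposite direction.

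Immediate early genes, which are switched on within minutes by growth factors or by handling of cells, were lower in the iPSC as well. Of 22 measured genes, 8 fell and 1, Myc, rose, with a median of -0.41. Here ESC-1 did not stand with the iPSC: the median was -0.53 against ESC-1 and -0.34 against the other 3, and in 20 of the 22 genes all 4 iPSC lay under ESC-1, against 24.2% of all genes. Fos, a subunit of the AP-1 transcription factor, was 4.65, 4.75, 4.57 and 4.55 in the 4 iPSC and 5.22, 5.64, 5.50 and 5.49 in the ESC. The groups did not overlap, and the difference was -0.83 ± 0.10 (limma adjusted p = 0.00853). Fosb, its close relative, was 0.51, 1.14, 1.09 and 0.77 in the iPSC and 1.84, 1.92, 1.86 and 1.71 in the ESC, a difference of -0.96 ± 0.14 (adjusted p = 0.0125). Fos and Fosb passed in all 8 fits. Dusp1, a phosphatase that turns off MAP kinases, differed by -0.49 ± 0.09 (adjusted p = 0.0196) and passed in 4 of them, and Ier3, a stress-response gene, by -0.83 ± 0.16 (adjusted p = 0.0208) and passed in 2. The number that fell was 10 without ESC-1, 8 without ESC-4, 4 without iPSC-44, 3 without iPSC-19, and 2 without iPSC-47, iPSC-49, ESC-2 or ESC-3. Bhlhe40, a transcription factor of the circadian clock and of stress responses, and Id2, an inhibitor of helix-loop-helix factors, are no members of the list and were chosen after their values were seen. Bhlhe40 differed by -1.02 ± 0.11 and Id2 by -1.16 ± 0.16 (limma adjusted p = 0.0063 and 0.0125), and both passed in all 8 fits.

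Genes of the epiblast and of priming, the step by which ESC leave the naive state, were higher in the 4 clones. Of 17 measured genes 10 rose and none fell, and the median difference was 0.68. The median was 0.33 against ESC-1 and 0.68 against the other 3, and in 11 of the 17 genes all 4 iPSC lay above ESC-1, against 27.8% of all genes. The list mean of ESC-1, 1.185, lay nearer to those of the iPSC (1.35 to 1.62) than to those of the other ESC (0.58 in each). Lef1, a transcription factor of the Wnt pathway, was -0.34, -0.16, 0.11 and 0.21 in the iPSC and -0.84, -1.74, -1.52 and -1.20 in the ESC. The difference was 1.28 ± 0.20 (limma adjusted p = 0.0125), and Lef1 was the list member that passed in all 8 fits. Fgf5, a growth factor of the epiblast, was -0.72, -0.84, -0.85 and -1.21 in the iPSC and -1.61, -1.63, -1.50 and -1.61 in the ESC. In Fgf5 the 4 ESC lay close together, ESC-1 included, and the difference was 0.68 ± 0.11 (adjusted p = 0.0135, passing in 6 of 8 fits). Etv1, a transcription factor downstream of FGF signals, was 2.38 to 2.62 in the iPSC and 2.03, 0.52, 0.49 and 0.76 in the ESC, so that ESC-1 lay nearer to the iPSC (difference 1.52 ± 0.30, adjusted p = 0.0218). Pim2, a kinase, had the same order, at 2.25, 3.15, 2.94 and 2.42 in the iPSC and 2.09, 0.82, 0.83 and 0.84 in the ESC (1.54 ± 0.31, adjusted p = 0.0222). Tcf15, a transcription factor found in ESC about to be primed, differed by 1.06 ± 0.22 (adjusted p = 0.0239), and its call was lost in each fit but that without ESC-1. Wnt8a, a Wnt ligand, was uneven among the iPSC, at -0.91, 0.50, -0.19 and -1.21, against -1.38 to -2.43 in the ESC (1.59 ± 0.36, adjusted p = 0.0301). The number of list genes that rose was 13 without ESC-1, 4 without iPSC-19 or iPSC-49, 3 without ESC-4, 2 without iPSC-44 or ESC-3, and 1 without iPSC-47 or ESC-2. It was 9 with the animal as a random block.

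Dnmt3a, an enzyme that places new DNA methylation, was 4.91, 4.67, 4.76 and 4.86 in the iPSC and 3.95, 3.47, 3.53 and 4.19 in the ESC. Every iPSC lay above every ESC, the difference was 1.01 ± 0.16 (limma adjusted p = 0.0128), and the call held in all 8 fits. Its relative Dnmt3b was 4.08, 4.55, 4.39 and 4.47 in the iPSC and 4.01, 3.88, 3.82 and 4.16 in the ESC, overlapped between groups and missed the threshold (0.40 ± 0.12, adjusted p = 0.0586). Of 20 measured genes of DNA methylation and Polycomb, 2 rose, Dnmt3a and the Polycomb subunit Bmi1 (0.57 ± 0.15, adjusted p = 0.0438, held in the fit without ESC-1 and lost in the other 7), and none fell. The median of this list was 0.02, that of all genes. Without ESC-1 the list had 5 genes higher and 4 lower, without iPSC-19 it had 2 higher, and without any 1 of the other 6 clones it had 1 higher.

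The core pluripotency factors Pou5f1, Nanog, Sox2 and Klf4 missed the threshold with all arrays. Pou5f1 was 4.42 in iPSC-19 and 4.85, 4.93 and 4.95 in the other 3, against 4.71, 4.87, 4.87 and 4.90 in the ESC. Its difference was -0.05 (95% interval -0.33 to 0.23), and it turned to 0.07 without iPSC-19. Nanog differed by -0.17 (adjusted p = 0.236), Sox2 by -0.26 (adjusted p = 0.0725) and Klf4 by -0.34 (adjusted p = 0.0571), none of them past the threshold. In Sox2 and Klf4, however, every iPSC lay under every ESC. Klf4 passed in 2 of the 8 fits that left out 1 clone, those without iPSC-19 and without ESC-1. Of the 28 measured genes of the pluripotency list 5 fell and 2 rose, with a median of -0.10. Tbx3, a naive-state transcription factor, was 3.28, 3.21, 3.39 and 3.33 in the iPSC and 3.68, 3.83, 3.86 and 3.67 in the ESC (-0.46 ± 0.08, limma adjusted p = 0.0167, passing in 5 of 8 fits). Tcl1, an activator of Akt kinase, and the nuclear receptor Esrrb differed by -0.46 ± 0.10 and -0.44 ± 0.11 (adjusted p = 0.028 and 0.0333), and Tfcp2l1, a naive-state factor induced by LIF, by -0.39 ± 0.10 (adjusted p = 0.0358). Esrrb and Tfcp2l1 passed in 1 of the 8 fits, that without ESC-1. Gbx2, a homeobox factor, went the other way, at 1.30, 0.79, 0.85 and 1.30 in the iPSC and 0.53, -0.54, -0.80 and -0.04 in the ESC (1.28 ± 0.27, adjusted p = 0.0248, in 2 of 8 fits). Dppa3, a naive-state and germ cell protein, was 3.45, 3.16, 3.27 and 3.18 in the iPSC and 3.12 in ESC-1 against 3.91 to 4.01 in the other ESC, and missed the threshold (adjusted p = 0.113). Across the 8 fits the number of pluripotency genes that fell ranged from 0, without iPSC-44, ESC-2 or ESC-3, to 10 without ESC-1. Of 17 genes of LIF, Jak and Stat3 signalling 4 fell and 1 rose. Gbx2, Klf4, Klf5, Stat3 and Tfcp2l1 belong to this list and to the pluripotency list, so the counts of these lists are not independent. Lifr, the LIF receptor, was 2.41, 2.43, 2.43 and 2.75 in the iPSC and 3.09, 2.94, 2.86 and 3.08 in the ESC (-0.49 ± 0.10, adjusted p = 0.0236), and Socs3, the feedback inhibitor induced by Stat3, differed by -0.64 ± 0.15 (adjusted p = 0.0333). Lifr passed in 2 and Socs3 in 3 of the 8 fits. The number of LIF genes that fell was 5 without ESC-1, 3 without iPSC-19, 1 without iPSC-49 or ESC-4, and 0 without any of the other 4 clones.

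Fibroblast and feeder genes were higher in the iPSC, with ESC-1 close to them. Of 34 measured genes 15 rose and none fell; the median difference was 0.80, but 0.15 against ESC-1 and 0.91 against the other 3 ESC. Col6a3, a collagen VI chain, was 0.93, 0.31, -0.10 and 0.32 in the iPSC and -0.53, -1.41, -1.38 and -1.86 in the ESC (1.66 ± 0.29, limma adjusted p = 0.0167). Col6a2, its partner chain, differed by 1.35 ± 0.22 (adjusted p = 0.0154), and Col6a1 by 1.36 ± 0.27 (adjusted p = 0.0215). Fap, a membrane protease of fibroblasts, was low throughout, at -2.57 to -2.34 in the iPSC and -3.19 to -2.90 in the ESC (0.60 ± 0.09, adjusted p = 0.0125). Col6a3, Col6a2 and Fap passed in 6 of the 8 fits, failing without ESC-2 and without ESC-3. Postn, a matrix protein, was 1.65, 1.54, 1.02 and 1.49 in the iPSC and 1.25, -0.39, -0.43 and -1.21 in the ESC, so that iPSC-47 lay under ESC-1 (1.62 ± 0.43, adjusted p = 0.0446). The classical fibroblast proteoglycan Dcn (1.72 ± 0.51, adjusted p = 0.0588) and the mesenchymal factor Twist2 (1.44 ± 0.49, adjusted p = 0.0828) overlapped between groups and missed the threshold, with ESC-1 at 0.86 and 0.37 against -1.21 or less in the other ESC. The number that rose was 26 without ESC-1, 5 without iPSC-19 or ESC-4, 4 without iPSC-47, 3 without iPSC-44 or iPSC-49, and 0 without ESC-2 or without ESC-3. With ESC-2 and ESC-3 averaged it was 1, and with the animal as a random block 6.

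Several of the largest increases had the same order of arrays. Wt1, a zinc-finger factor of mesothelium and kidney, was -0.51, 0.26, -0.12 and 0.24 in the iPSC, and -0.46 in ESC-1 against -2.71 to -2.57 in the other ESC (2.07 ± 0.47, limma adjusted p = 0.0286). Mmp10, a secreted protease, was -0.16 to 0.35 in the iPSC, -0.23 in ESC-1 and -2.55 to -2.45 in the others (1.98 ± 0.47, adjusted p = 0.0328). Myc, a proto-oncogene that is also 1 of the 4 factors of the cassette, was 2.20, 2.14, 2.07 and 2.13 in the iPSC, 1.96 in ESC-1, and 0.66, 0.62 and 0.62 in ESC-2, ESC-3 and ESC-4 (1.17 ± 0.27, adjusted p = 0.0317). In all of these ESC-1 stood with the iPSC, and each call was lost in every fit that kept ESC-1 and left out another clone. The same holds for Ccn4 (1.83 ± 0.44, adjusted p = 0.0331), a secreted Wnt target, the adhesion molecule Cdh11 (1.81 ± 0.41, adjusted p = 0.0286), the leukocyte protein Cd53 (1.58 ± 0.43, adjusted p = 0.0454) and the adaptor Sh3kbp1 (1.57 ± 0.39, adjusted p = 0.0367). Csn3, a milk casein, had the largest increase (2.08 ± 0.42, adjusted p = 0.0228), from -0.13 in ESC-1 and -1.71, -2.01 and -2.30 in the others to 0.72, 0.94, 0.45 and 0.06 in the iPSC, and passed in 3 of the 8 fits. Adam12, a membrane protease of mesenchyme, differed by 1.59 ± 0.30 (adjusted p = 0.0195) and passed in 4. Of the 12 genes with the largest increases, Cdh2, which encodes N-cadherin, passed in all 8 fits. It was 1.78, 2.35, 2.03 and 1.77 in the iPSC and 1.03, 0.17, 0.28 and -0.25 in the ESC (1.67 ± 0.25, adjusted p = 0.0125).

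Genes of glycolysis and of the response to low oxygen were lower. Of 27 measured genes 10 fell and none rose, and the median was -0.49, but -0.07 against ESC-1 and -0.58 against the other 3. Aldoc, an aldolase of glycolysis, was 1.28, 1.10, 1.44 and 1.52 in the iPSC and 2.11, 3.18, 3.20 and 2.67 in the ESC (-1.46 ± 0.23, limma adjusted p = 0.013), and was the list member that passed in all 8 fits. Higd1a, a mitochondrial protein induced by hypoxia, was 3.67, 3.66, 3.79 and 3.88 in the iPSC and 4.21, 4.36, 4.32 and 4.28 in the ESC (-0.54 ± 0.08, adjusted p = 0.0125, in 7 of 8 fits). Hk1, the first enzyme of glycolysis, differed by -1.37 ± 0.22 (adjusted p = 0.014, in 7 of 8 fits), and Adm, a vasodilator peptide induced by hypoxia, by -0.75 ± 0.13 (adjusted p = 0.0154, in 6 of 8 fits). The number that fell was 18 without ESC-1, 9 without iPSC-19, 7 without iPSC-49 or ESC-4, 5 without iPSC-44 or iPSC-47, 3 without ESC-3 and 1 without ESC-2. Among the genes with the largest decreases, Pygl, the liver glycogen phosphorylase, differed by -2.05 ± 0.34 (adjusted p = 0.0148, in 6 of 8 fits).

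The largest decrease of all was in Dner, a transmembrane protein with EGF-like repeats that acts in Notch signalling. It was -0.53, -0.49, -0.79 and -1.40 in the iPSC and 0.80, 2.23, 2.32 and 1.14 in the ESC (-2.42 ± 0.36, limma adjusted p = 0.0125). Krt7, a simple keratin, was -0.49, -0.81, -0.55 and -0.70 in the iPSC and 0.38, 1.65, 1.65 and 0.83 in the ESC (-1.76 ± 0.27, adjusted p = 0.0125), and Tfap2c, an AP-2 transcription factor of germ cells and trophoblast, was 3.68 to 3.87 in the iPSC and 4.25 to 4.49 in the ESC (-0.58 ± 0.08, adjusted p = 0.0125). Dner, Krt7 and Tfap2c passed in all 8 fits. Krt7 and Tfap2c belong to the list of trophoblast genes and simple keratins, of which 4 of 17 fell and none rose, with a median of 0.02. The other 2 were Rhox6 (-0.78 ± 0.14, adjusted p = 0.0169) and Rhox9 (-0.51 ± 0.12, adjusted p = 0.0348), homeobox genes of placenta and germ cells, while Gata2, a GATA factor, was 0.10, 1.92, 1.86 and 0.33 in the ESC and -0.16 to -0.55 in the iPSC and missed the threshold (adjusted p = 0.0514). The defining trophoblast markers had clone means between -2.63 and -2.14 in the ESC and -2.53 and -2.20 in the iPSC. The number that fell was 5 without ESC-1, where 3 rose, 4 without ESC-4, 3 without iPSC-19, iPSC-44 or iPSC-49, and 2 without iPSC-47, ESC-2 or ESC-3.
Other large decreases were Inca1, a regulator of cyclin A-dependent kinase (-1.81 ± 0.27, adjusted p = 0.0125, in all 8 fits), D7Ertd143e (-1.74 ± 0.25, adjusted p = 0.0125, in all 8), Adssl1, the muscle adenylosuccinate synthase (-1.92 ± 0.34, adjusted p = 0.0169, in 4), Gstm3, a glutathione transferase (-1.83 ± 0.34, adjusted p = 0.019, in 3), and Lrriq4 (-1.67 ± 0.32, adjusted p = 0.0208, in 3). Calml4, a calmodulin-like protein, was 0.30 to 0.88 in the iPSC, 1.08 in ESC-1 and 3.08 to 3.20 in the other ESC (-2.10 ± 0.43, adjusted p = 0.0231, in 2 of 8 fits). Fgg, a fibrinogen chain, went from -2.06, -0.33, -0.25 and -1.40 in the ESC to -3.03 to -2.62 in the iPSC (-1.79 ± 0.36, adjusted p = 0.023, in 2 of 8 fits).

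**Figure D4:**
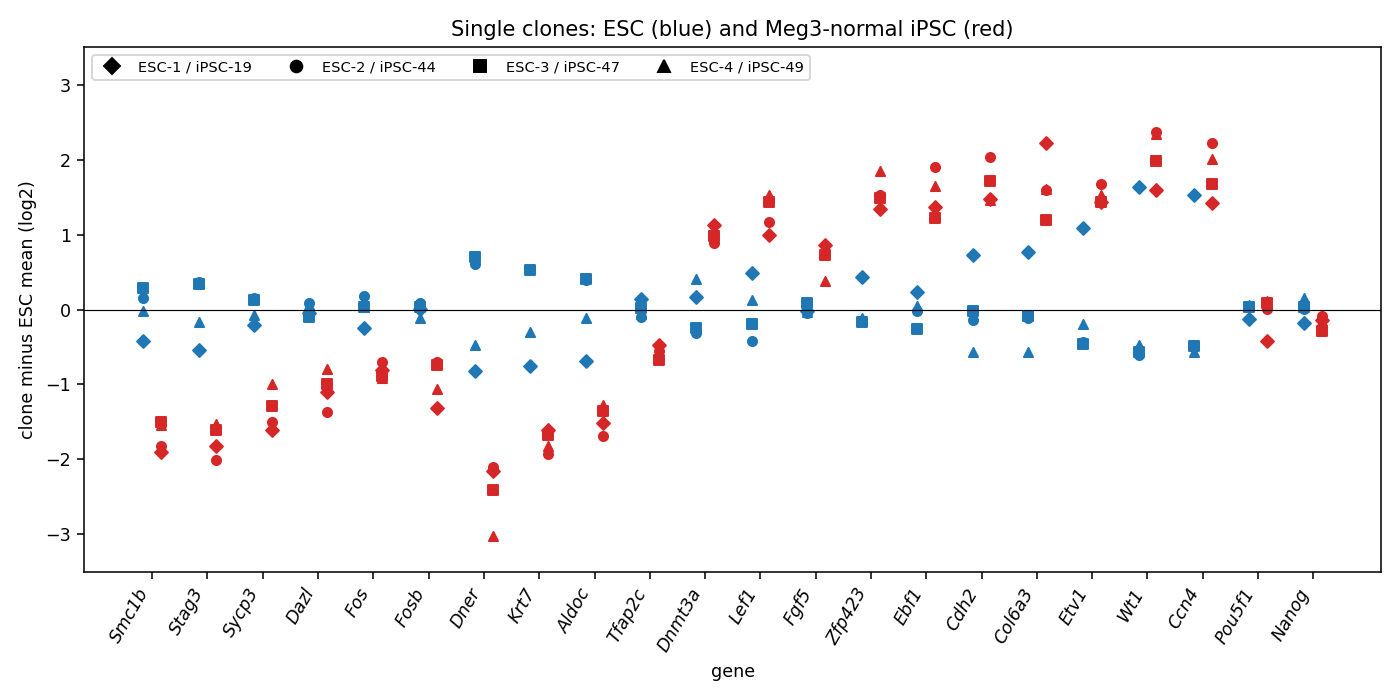
Values of 22 genes in single clones, as log2 value minus the ESC mean of the gene; blue symbols are ESC, red symbols Meg3-normal iPSC, and the shape names the clone. ESC-1 (blue diamond) lies with the other ESC for Dazl, Fosb, Tfap2c and Fgf5, and near the iPSC for Etv1, Wt1 and Ccn4.

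Imprinted genes outside Dlk1-Dio3 were mostly close to ESC. Of 28 measured genes 2 rose and 1 fell, with a median of 0.02, that of all genes. Snrpn, the paternally expressed splicing protein gene of the Prader-Willi region, was 4.49, 4.75, 4.62 and 4.47 in the iPSC and 4.23, 3.77, 3.73 and 3.89 in the ESC (0.67 ± 0.12, limma adjusted p = 0.0174, in 4 of 8 fits). Magel2, its paternally expressed neighbour, was -0.98 to -1.48 in the iPSC, -1.57 in ESC-1 and -2.56 to -2.44 in the others (0.98 ± 0.21, adjusted p = 0.0273, in 1 of 8 fits, that without ESC-1). Slc38a4, an amino acid transporter, was 2.96, 3.36, 3.40 and 3.59 in the iPSC and 3.74, 4.13, 4.17 and 4.27 in the ESC (-0.75 ± 0.15, adjusted p = 0.0233, in 3 of 8 fits). Mcts2, a retrogene, was 3.43 in iPSC-19 and 3.86 to 4.03 in the TTF-derived clones against 3.45 to 3.48 in the ESC, and missed the threshold (adjusted p = 0.0882). Without ESC-1, 5 genes of this list rose and 4 fell, and without iPSC-44, iPSC-47, ESC-2 or ESC-3 none passed.

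Among lineage lists, 3 of 14 neural genes rose. Pax6, a transcription factor of the neural plate and eye, was 1.64, 1.22, 1.16 and 1.72 in the iPSC and 1.01, -0.25, -0.37 and 0.29 in the ESC (1.26 ± 0.28, limma adjusted p = 0.0285), and the neurofilament genes Nefh and Nefl differed by 1.29 ± 0.26 and 0.62 ± 0.17 (adjusted p = 0.0215 and 0.0494). The neural count was 7 without ESC-1, 2 without ESC-4 and 0 without any of the other 6 clones. Cdx1, a caudal homeobox factor, rose among 18 genes of primitive streak and mesoderm (0.73 ± 0.16, adjusted p = 0.0278, in 3 of 8 fits), and Col4a1, a basement membrane collagen, among 19 of endoderm (0.79 ± 0.19, adjusted p = 0.0351, in 1 of 8 fits, that without ESC-1). Of 28 blood genes 2 rose and 2 fell: Kit, the stem cell factor receptor, which germ cells also use, was 0.66, 0.95, 1.13 and 1.11 in the iPSC and 1.50, 2.15, 2.20 and 2.30 in the ESC (-1.08 ± 0.18, adjusted p = 0.0154, in 6 of 8 fits). The blood list had 5 genes higher and 6 lower without ESC-1, none without ESC-2 or ESC-3, and 2 or fewer in all in each of the other 5 fits. Over all genes 4.82% were higher and 6.33% lower. The streak and mesoderm (5.56% higher), endoderm (5.26% higher) and blood lists (7.14% each way) lie near these shares. Outside these lists, Robo4, a receptor of blood vessel cells that was named in earlier work on these arrays, was -1.82 to -2.22 in the iPSC and -2.69 to -3.47 in the ESC (1.07 ± 0.16, adjusted p = 0.0125) and passed in all 8 fits. None of 20 interferon and MHC genes, 14 genes of Nodal signalling or 6 genes of the 2-cell-like state passed with all 8 arrays, while without ESC-1 the Nodal list had 7 genes higher and 1 lower and the interferon and MHC list 2 higher.

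Of 21 targets of p53, 3 fell: Cdkn1a, which encodes the cell cycle inhibitor p21, was 2.54, 2.84, 2.62 and 2.45 in the iPSC and 3.02, 3.35, 3.33 and 3.12 in the ESC (-0.59 ± 0.11, limma adjusted p = 0.0195, in 4 of 8 fits), and Trp53inp1 and Btg2 differed by -0.29 ± 0.07 and -0.44 ± 0.12 (adjusted p = 0.0331 and 0.0478). In 14 of the 21 genes all 4 iPSC lay under ESC-1, against 24.2% of all genes, and in none did all 4 lie above it. Without ESC-1 the count was 5, and in the other 7 fits it was 0 or 1. Of 24 proliferation genes 3 rose and 2 fell. Ccnd2, a D-type cyclin, was 2.81, 2.98, 2.61 and 2.82 in the iPSC and 2.27, 1.57, 1.60 and 1.29 in the ESC (1.12 ± 0.19, adjusted p = 0.0154, in 6 of 8 fits), and Ccne1, cyclin E1, rose by 0.40 ± 0.09 (adjusted p = 0.0319). Ccnb2, a mitotic cyclin, and Bub1, a kinase of the spindle checkpoint, differed by -0.49 ± 0.10 and -0.53 ± 0.12 (adjusted p = 0.0226 and 0.029), and the proliferation median was -0.04. In 13 of the 24 proliferation genes all 4 iPSC lay above ESC-1, against 27.8% of all genes, and in 3 all 4 lay under it. Without ESC-1, 6 proliferation genes rose and 8 fell, and without ESC-2 or ESC-3 none passed.

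The 6 genes that follow were singled out after their values were seen, since each passed in all 8 fits. Zfp423 and Ebf1, interacting transcription factors known from B cells and fat cell precursors, were both higher: Zfp423 was 1.97, 2.16, 2.11 and 2.47 in the iPSC and 1.06, 0.48, 0.46 and 0.51 in the ESC, and Ebf1 was 0.02, 0.55, -0.14 and 0.30 against -1.12, -1.38, -1.61 and -1.30. The differences were 1.55 ± 0.16 and 1.54 ± 0.16 (limma adjusted p = 0.0063 for each). In Ebf1 the value of ESC-1 lay close to that of ESC-4, and in Zfp423 it lay between the other ESC and the iPSC. Meis2, a homeobox factor, and Bcl11a, a zinc-finger repressor, differed by 1.30 ± 0.19 and 1.07 ± 0.15 (adjusted p = 0.0125 for each). Mybl1, a transcription factor of male meiosis outside the germ cell list, was -3.40 to -3.12 in the iPSC and -2.40 to -1.79 in the ESC (-1.18 ± 0.13, adjusted p = 0.0063), which is low on the scale of these arrays. Bmp7, a ligand of the BMP pathway, was -1.50, -1.49, -1.20 and -1.34 in the iPSC and -0.34, 0.23, 0.22 and -0.44 in the ESC (-1.30 ± 0.17, adjusted p = 0.00974).

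The 4 clones were then set against the 7 other PF- and TTF-derived iPSC, which did not meet the rule, with the animal as a term. No gene of 11807 passed (0.0%; limma), and 265 had an unadjusted p under 0.05. The median SE of a difference in this fit was 0.12 log2 units. In a fit without the animal the 2 genes past the threshold (0.0169%) were Meg3 and Rian, whose values chose the groups, so nothing is read from them, and no other gene passed. With the 3 against 3 TTF-derived clones of chimera 2 alone none passed, and 601 had an unadjusted p under 0.05. For Smc1b the difference between the 4 clones and the other 7 was -0.32 (95% interval -0.97 to 0.34), for Fos 0.05 (-0.33 to 0.43), for Dnmt3a 0.05 (-0.13 to 0.24), for Lef1 0.27 (-0.71 to 1.24), for Col6a3 -0.28 (-0.70 to 0.15) and for Aldoc 0.33 (-0.13 to 0.79). Each of these intervals excludes a difference as large as that of the 4 clones from ESC, such as 1.01 for Dnmt3a and -0.83 for Fos. That for Lef1 does so barely, since it nearly reaches 1.28. The 5 genes with the smallest p, none past the threshold (adjusted p = 1.0), were Ahrr (-0.43 ± 0.09), Mllt6 (-0.38 ± 0.09), Cyp4f14 (0.33 ± 0.08), Syk (0.44 ± 0.12) and Dab2 (-0.77 ± 0.20). That no gene passed does not show that the 4 clones and the other 7 are alike.

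Levels across the series are given side by side, since the comparisons share the ESC arrays. The mean of the germ cell list was -0.03 ± 0.20 (SD, n = 4) in the 4 clones, 0.04 ± 0.22 in the other 7 PF- and TTF-derived clones, 0.71 ± 0.17 in ESC (n = 4), 0.88 ± 0.18 in the 6 MEF-derived and 0.62 ± 0.21 in the 31 blood-derived clones. Low germ cell gene levels were thus shared by the PF- and TTF-derived clones on both sides of the Meg3 rule, while the MEF-derived clones lay between 0.69 and 1.12 and the blood-derived clones between 0.20 and 0.88. The immediate early mean was 2.05 ± 0.14 in the 4 clones, 1.98 ± 0.17 in the other 7, 2.39 ± 0.19 in ESC, 2.38 ± 0.29 in MEF-derived and 1.81 ± 0.18 in blood-derived clones, so here the blood-derived clones were low too. The glycolysis and hypoxia mean was 3.13 ± 0.07 in the 4 clones, 3.02 ± 0.14 in the other 7, 3.65 ± 0.26 in ESC, 3.80 ± 0.09 in MEF-derived and 3.43 ± 0.26 in blood-derived clones. For priming genes the means were 1.46 ± 0.12, 1.28 ± 0.44, 0.73 ± 0.30, 0.64 ± 0.10 and 1.12 ± 0.17 in the same order of groups. Dnmt3a was 4.80 ± 0.11 in the 4 clones, 4.81 ± 0.13 in the other 7, 3.78 ± 0.34 in ESC, 3.84 ± 0.55 in MEF-derived and 5.12 ± 0.17 in blood-derived clones. The fibroblast and feeder mean was 1.73 ± 0.15 in the 4 clones, 2.13 ± 0.29 in the other 7, 0.98 ± 0.46 in ESC, 1.07 ± 0.45 in MEF-derived and 1.28 ± 0.34 in blood-derived clones. The MEF-derived clones come from another chimera, and origin and animal cannot be told apart for them.

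**Figure D5:**
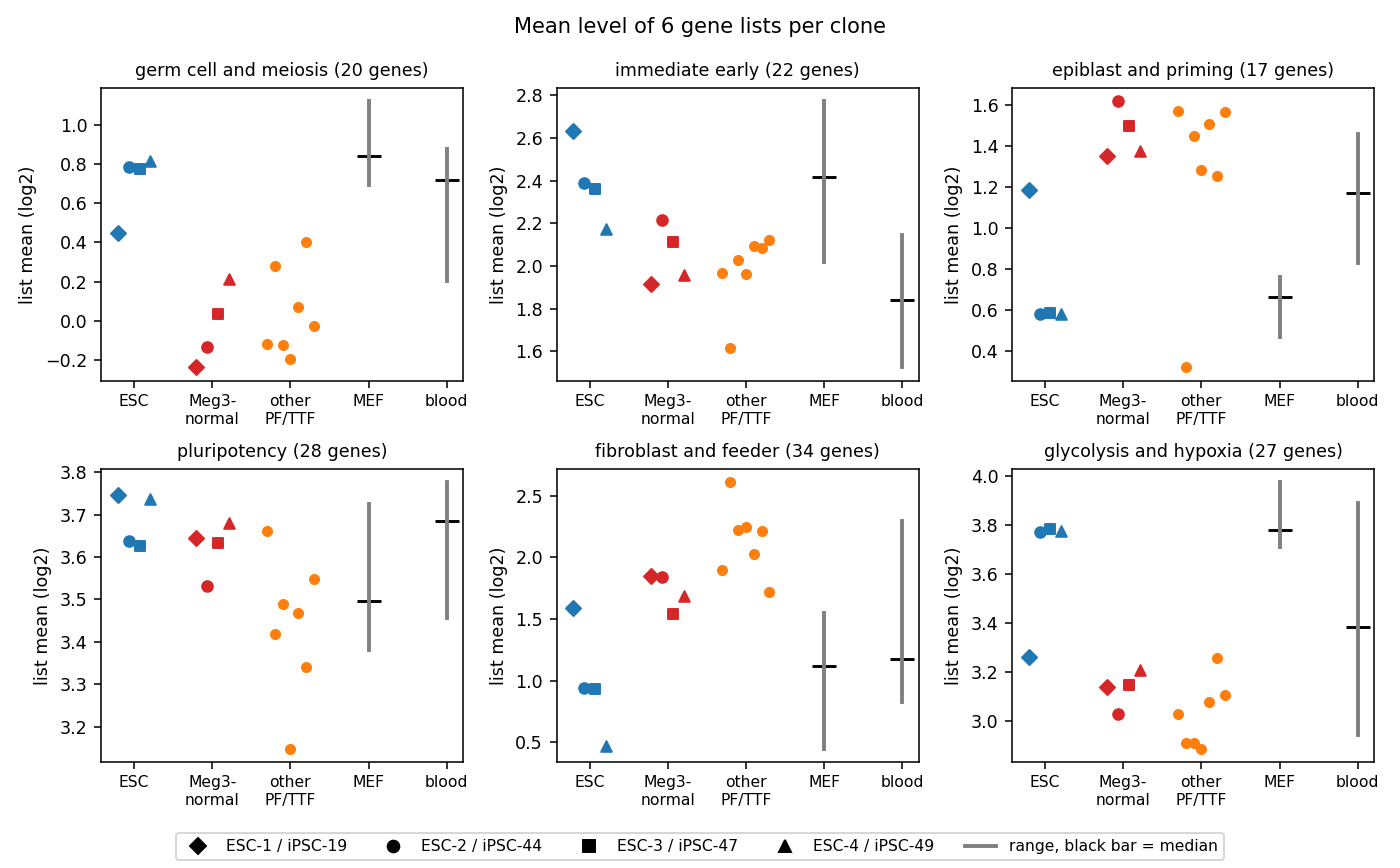
Mean log2 level of the measured genes of 6 lists in each ESC (blue), Meg3-normal iPSC (red) and other PF- or TTF-derived iPSC (orange), with the range (grey) and median (black bar) of 6 MEF-derived and 31 blood-derived iPSC. In the germ cell list the 4 Meg3-normal clones (-0.24 to 0.21) lie under all ESC. In the priming, fibroblast and glycolysis lists ESC-1 lies nearer to the iPSC than to the other ESC.

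Among themselves, the 4 clones differed most where iPSC-19 left the 3 TTF-derived clones, a split of origin and animal that rests on 1 array. 2210409E12Rik was -1.33 in iPSC-19 and 1.62 to 2.16 in the TTF-derived clones, with ESC at 1.12 to 2.00. Ctr9, a subunit of the PAF1 complex of transcription elongation, was 0.93 in iPSC-19 and 2.83 to 2.92 in the others, with ESC at 2.46 to 2.70. Hesx1, a homeobox repressor, was -1.27 in iPSC-19 and 0.34 to 0.49 in the others, with ESC at 0.59 to 1.19. In these 3 genes iPSC-19 stood apart from all ESC as well. Notum, a secreted inhibitor of Wnt ligands, was higher in iPSC-19, at 1.34 against -0.26 to 0.33 in the TTF-derived clones and -1.09 to -0.52 in ESC. Relative to the array's median over all genes, the chromosome medians of the 4 clones against ESC lay between -0.105 and 0.06 log2 units. Chromosome 12 (207 genes with a mean above 0) had the lowest median in each of the 4, at -0.105 in iPSC-19, -0.073 in iPSC-44, -0.05 in iPSC-47 and -0.069 in iPSC-49, while the lowest other chromosome was at -0.042, -0.037, -0.044 and -0.035. Each ESC against the other 3 gave -0.028, 0.023, 0.01 and 0.011 for this chromosome. The median of chromosome 12 ran from -0.151 to -0.057 in the other 7 PF- and TTF-derived clones, where it was the lowest in 6. It ran from -0.078 to -0.014 in the 31 blood-derived clones, where it was the lowest in 19. In the 6 MEF-derived clones it ran from -0.029 to 0.027 and was the lowest in 0. These shifts are small, share the ESC arrays and were not tested.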

How the data were processed

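Total RNA of 59 mouse lines was labelled as biotinylated cRNA and hybridised to Affymetrix arrays, per the labels' protocols. The deposited table holds log2 intensities for 22626 probe sets, centred so that the mean of every array is close to 0. The base of the logarithm (values run from -4.83 to 6.97) and the centring were read from the values, while summarisation, background correction and scan batches were not given in the sources used here. Probe sets were named through the platform annotation joined to RefSeq genes of GRCm38.p6: 18003 matched 1 gene, 287 matched several, and 4336 were left unnamed. The 11807 genes were each read from the probe set that was brightest on average across the series, and 4150 genes had more than 1. Array precision is limited by the number of clones (4 against 4), which is the n of every ESC comparison.

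The 4 clones were compared with ESC by limma (version 3.58.1, run in R 4.3.3; lmFit followed by eBayes; 2-sided; no covariates, 8 arrays, Benjamini-Hochberg over all genes, adjusted p under 0.05), and with the 7 other PF- and TTF-derived clones with the animal as a term. All adjusted p-values in the text are from limma, and errors beside differences are SE unless SD is stated. The script was tested on simulated data. The labels do not say which clones were grown or hybridised together, so p-values measure the spread between these arrays, which may be partly technical.

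The clones were chosen by measured values of these arrays, and members, gene lists, tests and motifs were chosen with earlier results of these data known. The levels of Meg3, Rian and Dlk1 are therefore a description, and nothing is read from their rows in a fit over all genes. Genes open to naming were the 12 most increased and 12 most decreased of the called genes, the 5 with the smallest p against the other clones, up to 4 members with the smallest p of each list, the Dlk1-Dio3 and reprogramming genes, and 23 genes named in earlier work on these same arrays (such as Wt1, Gbx2, Dnmt3a, Dner, Smc1b and Hormad1), which are no independent evidence. Others are said to be chosen after their values were seen. The genes named for the split of iPSC-19 from the TTF-derived clones were also chosen by their values. Cell type markers and the genes that flank Dlk1-Dio3 are named as descriptions. Lists are described by counts and medians without a test of the list. Some lists share members, such as Btg2 in the immediate early and p53 lists, and a shared gene counts in each. Alternatives were quantile normalization, a filter at the 40th percentile, the mean of probe sets or every probe set, other eBayes settings, 1 fit over all groups and leaving out each clone. Averaging ESC-2 with ESC-3, the animal as a random block and the list counts without each clone were added after seeing the data.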

Additional observations from a re-analysis of the deposited data

Results flagged for a closer look

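In a group of 4 arrays, a clone was listed where its gap to the nearest other clone took up more of the group's range than Dixon's critical value allows. This was checked for 112 of the genes named in the text, in ESC and in the Meg3-normal iPSC: 19 of 224 groups met it. Other named genes, such as Ctr9, Notum and Laptm5, were not checked. Chance lists about 1 in 20 groups, and the genes were chosen with their values known and are not independent of each other.

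ESC-1 was the distant clone in 15 of the 19. It was the highest ESC for Ccl7 (-0.88), Ccn4 (1.24), Magel2 (-1.57), Mmp10 (-0.23), Myc (1.96), Pim2 (2.09), Twist2 (0.37), Wt1 (-0.46) and Zfp423 (1.06). It was the lowest ESC for Bub1 (4.06), Calml4 (1.08), Dppa3 (3.12), Esrrb (4.59), Hesx1 (0.59) and Hormad1 (1.54). In each of these 15 genes ESC-1 departed from the other ESC toward the mean of the 4 iPSC. ESC-4 was the highest ESC for Dpp4 (2.35).

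Among the iPSC, iPSC-19 was the lowest for Hesx1 (-1.27), and iPSC-49 was the lowest for Aqp3 (-0.67) and the highest for Lifr (2.75).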

How the results depend on the processing

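The 1316 genes past the threshold between the 4 clones and ESC became 2129 when every probe set was tested on its own (of 22626) and 2841 in 1 fit over all groups. With ESC-2 and ESC-3 averaged as 1 clone there were 101. With the animal as a random block, the 4 ESC taken as 1 block, there were 708. Leaving out 1 clone gave from 83 to 3769 genes. The count was 1407 under quantile normalization, 1500 without dim genes, 1261 with the mean of probe sets and 1699 with other eBayes settings. Against the other PF- and TTF-derived clones the count was 0, and 2 without the animal term, and it was 0 with any of the 4 clones left out. Of the 112 named genes followed through these settings, Pou5f1 was the 1 that changed sign. Its differences ran from -0.104 to 0.072 when 1 clone was left out (0.072 without iPSC-19). Quantile normalization, the mean of probe sets and other eBayes settings kept 104 or more of these 112 genes on their side of the threshold, while leaving out ESC-2 kept 47. No paired analysis was possible because the labels match no ESC clone to any of the 4 iPSC. Dim genes such as Mybl1, Fap and Cyp4f14 lie low on the scale of the arrays, and detection calls were not used here.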

Other observations

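Some genes outside the groups above also differed between the 4 clones and ESC. Hspb8, a small heat shock protein, was 2.14, 2.21, 2.15 and 2.12 in the iPSC and 2.94, 3.25, 3.31 and 2.93 in the ESC (-0.95 ± 0.10, limma adjusted p = 0.0063). Clybl, a mitochondrial lyase of citramalyl-CoA, differed by -1.14 ± 0.11, and Ankrd44, an ankyrin-repeat subunit of a phosphatase, by -1.35 ± 0.14 (adjusted p = 0.0063 for each). Cpeb2, a binding protein of mRNA tails, was 0.33, 0.70, 0.48 and 0.67 in the iPSC and 1.54, 1.56, 1.62 and 1.47 in the ESC (adjusted p = 0.0063). These 4 were chosen after their values were seen, had no overlap between groups and passed in all 8 fits that left out 1 clone.

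Of 15 cholesterol synthesis genes 2 fell, Lss (-0.57 ± 0.13, limma adjusted p = 0.028) and Msmo1 (-0.46 ± 0.11, adjusted p = 0.0317), and without ESC-1 6 fell and 1 rose. Of 21 genes of amino acid and endoplasmic reticulum stress 2 fell, Ddit3, a stress transcription factor (-0.58 ± 0.14, adjusted p = 0.0334), and Herpud1, a factor of protein degradation (-0.30 ± 0.07, adjusted p = 0.0345). Without ESC-1 that count was 6, and without ESC-2 or ESC-3 it was 0. With all arrays, 13.3% of the cholesterol list and 9.52% of the stress list fell, against 6.33% of all genes. Without ESC-1, 17.5% of all genes fell and 14.4% rose. The counts with all arrays are not read as a result about these 2 lists. Among blood genes Cebpa, a myeloid transcription factor, was -1.13 to -0.89 in the iPSC and -0.63 to -0.47 in the ESC (-0.43 ± 0.08, adjusted p = 0.0209), and Lmo2, a cofactor of blood stem cells, differed by 0.52 ± 0.13 (adjusted p = 0.0336).

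Genes named in earlier work on these arrays had the following values. Aqp3, a water and glycerol channel, was -0.28, -0.32, -0.32 and -0.67 in the iPSC and 0.48, 0.75, 0.83 and 0.05 in the ESC (-0.92 ± 0.17, limma adjusted p = 0.019). Dpp4, a membrane peptidase, was 2.44, 1.33, 1.70 and 1.97 in the iPSC and 0.84, 0.87, 0.94 and 2.35 in the ESC, so that ESC-4 lay within the iPSC range, and it missed the threshold (adjusted p = 0.273). Ccl7, a chemokine of fibroblasts, was 0.08 to -0.53 in the iPSC and -0.88 in ESC-1 against -2.01 to -1.88 in the others (1.41 ± 0.26, adjusted p = 0.0183). Alcam, an adhesion molecule, differed by 0.84 ± 0.19 (adjusted p = 0.0283). Inhba, an activin subunit, was highest in ESC-1 at 1.75, against 0.52 to 1.19 in the iPSC and -1.58 to -0.78 in the other ESC, and missed the threshold (adjusted p = 0.159).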
